A study of Mus musculus with 24 samples.

Results

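Lipid efflux, lipolysis and lipid droplet storage were followed through 7 genes in the cortex of mice after a stroke: Apoe, Apod, Abca1, Abcg1, Lpl, Plin2 and Fabp7. They were taken by symbol. All 7 of 7 were listed in each of the 4 deposited tables, which together hold 14769 gene symbols. The mice were male and 3 to 4 months old. In every animal the middle cerebral artery was closed with a filament for 1 h, and blood then flowed again for 1 day. Both genotypes carry the strain label C57BL/6N-Cdr1asem1Nikr. WT animals are wild type. KO animals lack ciRS-7, a circular RNA also called Cdr1as, and the labels name no single cell type in which it is lost. Each animal gave 2 cortex libraries, marked CL and PI, marks that the labels do not spell out. With 6 animals a genotype this makes 24 libraries, 6 in each combination of CL or PI with WT or KO. There is no group without the operation, so every group, the CL groups included, comes from an operated animal.

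Lipids set free when myelin and membranes break down are taken up by glia and by macrophages. Those cells can pass cholesterol and phospholipid to lipoprotein particles built on apolipoprotein E, or keep it as neutral fat in lipid droplets. In the brain, APOE is secreted mainly by astrocytes and by activated microglia, and the transporters ABCA1 and ABCG1 load lipid onto it. Genes of both transporters and of APOE are known targets of the liver X receptors, which sense oxidised cholesterol. Lipoprotein lipase frees fatty acids from lipoproteins, perilipin 2 coats droplets, and FABP7 carries fatty acids inside astrocytes and their precursors.

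Promoter sequences are shown for the members with a table entry that passed the test between PI and CL, Plin2, Apod and Apoe, and for Abca1, which did not, so that their letters can be compared. They come from RefSeq on GRCm38.p6, and 5 of the 7 members have an entry there (Apoe, Apod, Abca1, Plin2 and Fabp7). Each stretch runs 5′ to 3′ on the gene's strand, with 250 bases before the start of the transcript and 20 from it on. Capitals mark matches, on either strand, to 7 motifs. The core of the hypoxia response element was searched as ACGTG, the nuclear receptor half-site as AGGTCA, the site of the AP-1 factors as TGANTCA and that of the STAT factors as TTCNNNGAA. Of the promoter boxes, the one bound by the TATA-binding protein was searched as TATAAA, the one bound by nuclear factor Y as CCAAT, and the GC box as GGGCGG. The hypoxia core can overlap itself on opposite strands, and no 2 different motifs overlapped in the stretches shown. Plin2 lies at chr4:86670040-86670309 on the minus strand, Apod at chr16:31314789-31315058 on the minus strand, Apoe at chr7:19699169-19699438 on the minus strand (the one of its 3 entries at the GENCODE gene start), and Abca1 at chr4:53159876-53160145 on the minus strand.
Plin2: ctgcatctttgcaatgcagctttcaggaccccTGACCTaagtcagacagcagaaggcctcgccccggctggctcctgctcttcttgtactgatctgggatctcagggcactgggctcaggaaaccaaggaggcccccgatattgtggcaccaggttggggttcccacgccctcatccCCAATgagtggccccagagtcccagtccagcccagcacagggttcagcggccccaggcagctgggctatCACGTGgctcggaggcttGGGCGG
Apod: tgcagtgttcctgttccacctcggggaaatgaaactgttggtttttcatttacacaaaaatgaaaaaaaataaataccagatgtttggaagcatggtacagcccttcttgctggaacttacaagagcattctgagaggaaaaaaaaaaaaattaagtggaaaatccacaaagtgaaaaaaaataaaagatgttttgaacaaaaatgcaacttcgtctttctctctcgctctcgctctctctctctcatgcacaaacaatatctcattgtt
Apoe: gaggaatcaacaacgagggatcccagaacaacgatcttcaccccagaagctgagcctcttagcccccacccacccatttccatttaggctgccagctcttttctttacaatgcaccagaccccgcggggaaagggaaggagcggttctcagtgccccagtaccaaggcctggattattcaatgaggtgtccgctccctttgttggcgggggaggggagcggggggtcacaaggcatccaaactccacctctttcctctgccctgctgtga
Abca1: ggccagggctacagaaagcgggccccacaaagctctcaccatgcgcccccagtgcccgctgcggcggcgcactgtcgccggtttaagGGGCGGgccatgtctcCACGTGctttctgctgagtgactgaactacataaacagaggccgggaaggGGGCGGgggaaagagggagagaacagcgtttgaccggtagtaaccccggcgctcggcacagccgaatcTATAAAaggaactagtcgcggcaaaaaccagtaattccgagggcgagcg

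In Plin2 the hypoxia core starts 4 bases before the transcript. Its 2 overlapping matches lie in CACGTG, a palindrome that reads the same on both strands, so they are not separate sites. The same pair of overlapping matches stands in Abca1, 147 bases before the start. Plin2 also holds the nuclear receptor half-site on the other strand, 1 CCAAT box and 1 GC box. Abca1 holds a TATA box 29 bases before the start and 2 GC boxes. Neither Apoe nor Apod holds any of the 7 motifs in this window. Over 32851 RefSeq promoter entries of the same 270 bases, 17.9% hold the hypoxia core, 15.0% the half-site, 7.23% the AP-1 site, 7.58% the STAT site, 12.9% the TATA box, 35.4% the CCAAT box and 34.1% the GC box. A match describes the exact letters searched, and none of these data measure binding there. Sites with variant letters are not marked, so a stretch without a match can still hold such a site.

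Values are log2 CPM, where CPM are the reads of a gene scaled to the reads of its library. The 2 lowest deposited values of each gene and group are equal, and so are the 2 highest, both drawn in to the group's quartiles, so the lowest and the highest of the 6 libraries cannot be recovered. Levels of single genes below are therefore given as the second lowest, the median and the second highest library, in CPM, and means are those of the 4 recovered values. Groups are said not to overlap when these recovered values do not. Marker sums instead add up the deposited, drawn-in values of each library. Their ranges run over all 6 libraries of a group and can understate the true spread. Called genes are those with an adjusted p under 0.05 in a moderated trimmed-mean test, which uses limma's empirical Bayes step and the Benjamini-Hochberg adjustment over the whole table. Every adjusted p below is from that test unless another is named, errors are SE, and n = 6 libraries a group. In bulk tissue, fewer cells of a type and less RNA per cell cannot be told apart.

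Depth was read from the values, so it carries the scaling of each table and differs somewhat for the same library between tables. It was 5.25 to 10.5 megareads a library, with a median of 6.93 megareads over the libraries of the 4 tables. A count of 0 allows up to 3 reads, or 0.286 to 0.571 CPM. Cdr1as, the circular RNA that the KO animals lack, matched the genotype labels. The medians were 3678 CPM in CL WT and 2691 CPM in PI WT, and no recovered KO value was above 0.168 CPM. Between genotypes, 3 genes were called in the PI table and 4 in the CL table. CL KO animal 6 stood apart most: it was among the tied outer values in 89.4% of genes, where an even share is 66.7%. PI WT animal 4 followed at 80.6%. The trimmed mean gives the outermost values no weight of their own. Astrocyte, oligodendrocyte and neuron markers were listed in all 4 groups of this tissue labelled cortex, and of 8 choroid plexus markers only Kl was listed in the tables of PI and CL.

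Per kilobase of exon, Apoe stood highest of the 7 in all 4 groups, at 147 CPM per kb in CL WT, 104 in PI WT, 151 in CL KO and 123 in PI KO. Apod was second, with 49.4, 70.8, 42.1 and 67.1 CPM per kb in the same order of groups. Abca1 and Abcg1 followed close together, at 9.32 and 8.71 CPM per kb in CL WT. They changed places in CL KO, at 8.66 and 8.99, and their order is not resolved. Next came Fabp7 with 4.51 to 8.08 CPM per kb. Lpl and Plin2 came last and also changed places, at 0.840 and 0.481 CPM per kb in CL WT and at 1.87 and 2.03 in PI KO.

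**Figure D1:**
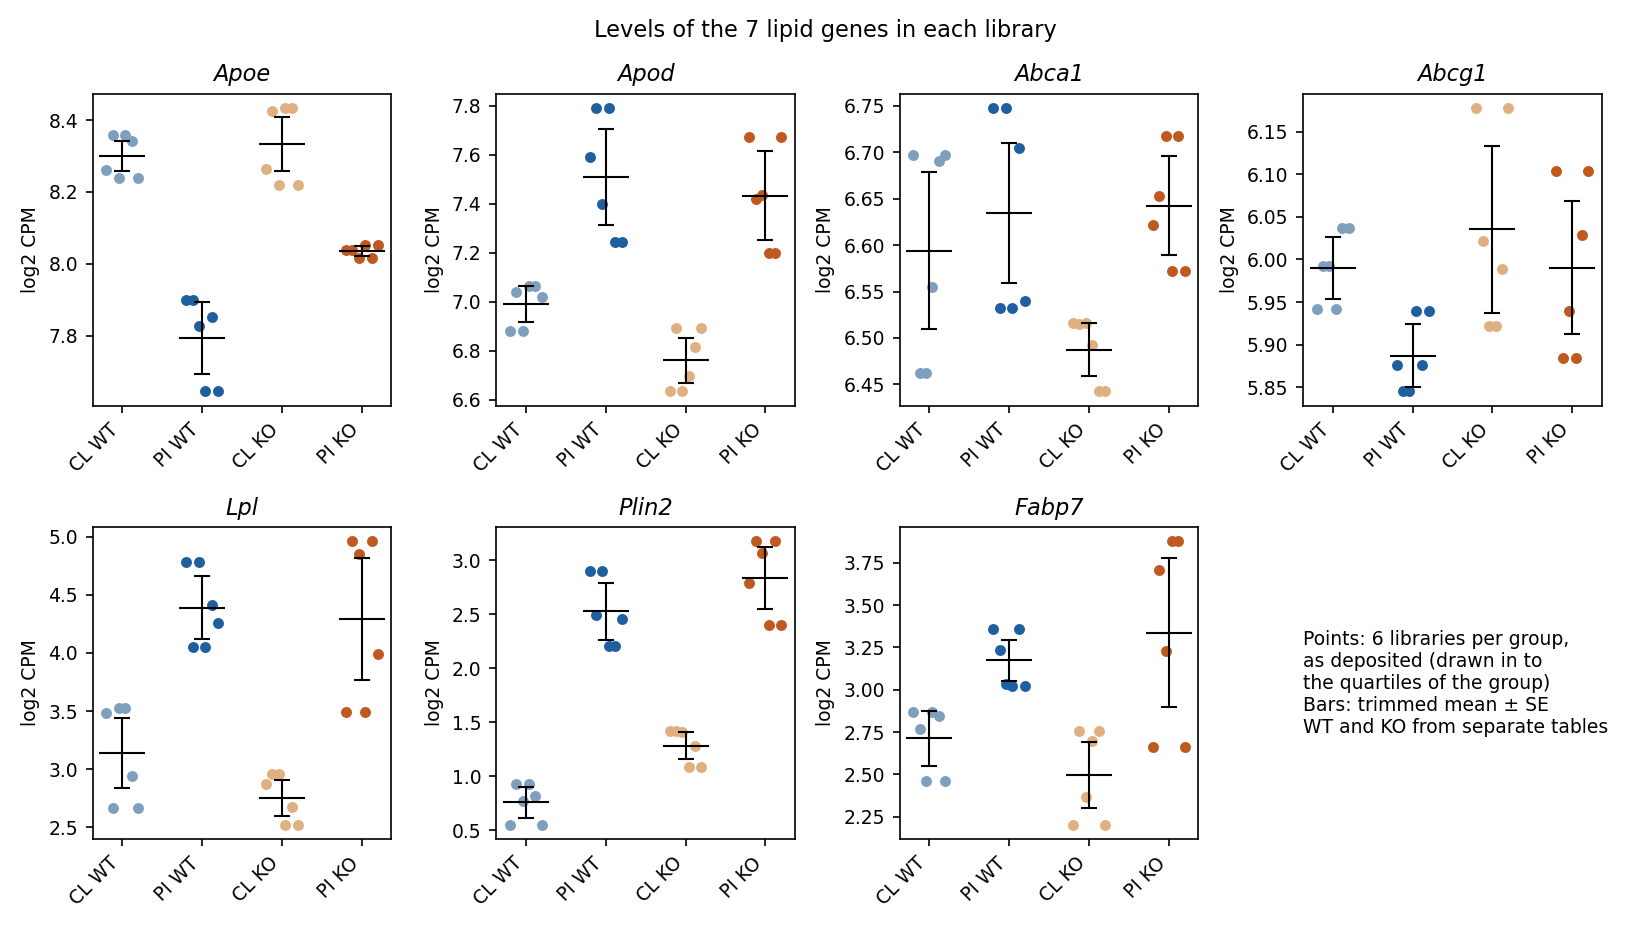
Log2 CPM of each of the 7 genes (y axis, one panel a gene) in the libraries of the 4 groups (x axis). Points are the 6 deposited values of a group, which are drawn in to its quartiles, and bars are the trimmed mean ± SE. Plin2 and Lpl are higher and Apoe lower in both PI groups than in the CL group of the same genotype, while Abca1 and Abcg1 move little.

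Between PI and CL, 4 of the 7 genes were called in WT animals and the same 4 in KO animals. Plin2, Lpl and Apod were higher in PI, and Apoe was lower. Plin2 moved most in WT, 3.41-fold. In KO animals Plin2 (2.93-fold) and Lpl (2.91-fold) moved about equally, and Lpl came first with the median of the inner values and on the log2(CPM + 0.5) and log2(CPM + 1) scales. Over all genes, 1537 of 14489 were called in WT and 1440 of 14338 in KO. The higher calls were 754 genes in WT and 732 in KO (5.20% and 5.11% of all genes), and the lower calls were 783 and 708 (5.40% and 4.94%). With each group centred on its median gene, 636 were called higher and 1053 lower in WT, and 589 and 1017 in KO. The median log2 fold change of the 7 genes was 0.46 in WT and 0.67 in KO, beside 0.01 and -0.00068 over all genes tested. With a prior variance that has no trend with level, the calls of Apod and Lpl in WT and of Apoe, Apod and Lpl in KO were lost, and Plin2 and, in WT, Apoe remained.

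Apoe, the main lipid carrier apolipoprotein of brain, is on chromosome 7 (19696109 to 19699188, minus strand, GRCm38). Its level was 300.2, 315 and 329 CPM in CL WT and 192, 229 and 241 CPM in PI WT. The groups did not overlap. The difference was -0.50 ± 0.09 on the log2 scale (adjusted p = 0.00263), or 1.42-fold lower in PI. In KO animals it was 295, 325 and 347 CPM in CL and 257, 263 and 266 CPM in PI. Again the groups did not overlap, and the recovered PI KO values lay close together. The log2 difference was -0.30 ± 0.07 (adjusted p = 0.0173), or 1.23-fold lower. Summed astrocyte markers (12 of 12 listed) were lower in PI too, from 6871 to 7293 CPM in PI WT against 7892 to 8287 in CL WT, and from 6671 to 7375 CPM in PI KO against 7895 to 8414 in CL KO. Of the 12, 1 was higher and 4 lower in WT, and 1 higher and 2 lower in KO. Their part in the fall of Apoe was not tested.

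Apod, a small lipocalin made by oligodendrocytes and other cells that binds arachidonic acid and related lipids, moved the other way. It lies on chromosome 16 (31296192 to 31314808, minus strand). It had 114, 131 and 135 CPM in CL WT and 147, 180 and 232 CPM in PI WT. The recovered values of the groups did not overlap. The log2 difference was 0.52 ± 0.15 (adjusted p = 0.0451), 1.43-fold, and this call is close to the threshold. It was lost, at an adjusted p of 0.0554, when the median gene of every group was set equal. In KO animals Apod had 97.9, 108 and 121 CPM in CL and 139, 172 and 215 CPM in PI, with no overlap. There the log2 difference was 0.67 ± 0.15 (adjusted p = 0.0133), 1.59-fold. Summed oligodendrocyte markers (12 of 12 listed) did not rise with it. They ran from 1669 to 2327 CPM in PI WT against 2375 to 2591 in CL WT, with 0 higher and 3 lower, and from 1843 to 2086 CPM in PI KO against 1880 to 2566 in CL KO, with none called by the trimmed-mean test and 1 at an unadjusted p under 0.05, while limma on the deposited values called 6.

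The exporters Abca1 and Abcg1 were not called in either genotype. Abca1, which moves cholesterol and phospholipid onto lipid-poor apolipoproteins (chromosome 4, 53030787 to 53159895, minus strand), had 86.3, 98.6 and 104 CPM in CL WT and 92.4, 98.5 and 109 CPM in PI WT. The 2 groups overlapped over most of their range, with a log2 difference of 0.04 ± 0.09 (adjusted p = 0.844). In KO animals it had 86.0, 90.8 and 91.5 CPM in CL and 94.1, 99.5 and 107 CPM in PI. The recovered values did not overlap, but the log2 difference of 0.15 ± 0.07 did not pass (adjusted p = 0.168). It passed in limma on the deposited values, whose spread is understated, with the animal as a block (adjusted p = 0.00264) and without it (adjusted p = 0.00116). Abcg1, which passes cholesterol on to lipidated particles (chromosome 17, 31057675 to 31117988, plus strand), had 60.8, 63.7 and 66.3 CPM in CL WT and 57.1, 58.7 and 62.3 CPM in PI WT. Its log2 difference was -0.10 ± 0.06 in WT (adjusted p = 0.363) and -0.04 ± 0.10 in KO (adjusted p = 0.836), where CL ran from 59.7 to 75.1 CPM and PI from 58.3 to 70.0 CPM. Both pairs of groups overlapped. In WT limma on the deposited values called it with the block (adjusted p = 0.0154) and without it (adjusted p = 0.00877). The gene body of Abcg1 holds the rRNA gene Gm25447 on the same strand, outside its exons.

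Lpl, the lipase that releases fatty acids from lipoprotein triglyceride and is known in brain from microglia and some neurons, lies on chromosome 8 (68880491 to 68907448, plus strand). It had 5.97, 9.29 and 11.7 CPM in CL WT and 15.8, 20.2 and 29.9 CPM in PI WT. The groups did not overlap. The log2 difference was 1.25 ± 0.29 (adjusted p = 0.0153), 2.38-fold. In KO animals it had 5.54, 6.84 and 7.91 CPM in CL and 9.99, 21.5 and 31.9 CPM in PI, which made PI KO the most spread of the groups. The log2 difference was 1.54 ± 0.39 (adjusted p = 0.0248), 2.91-fold, with no overlap.

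Plin2, the coat protein of lipid droplets outside fat tissue, lies on chromosome 4 (86648386 to 86670060, minus strand). It was low in CL WT, at 1.39, 1.74 and 1.94 CPM, and reached 4.36, 5.56 and 8.19 CPM in PI WT. The lowest recovered PI library was thus above the highest recovered CL library. The log2 difference was 1.77 ± 0.27 (adjusted p = 0.00119), and only 0.669% of the genes in the table had a larger change in either direction. In KO animals Plin2 had 2.03, 2.54 and 2.69 CPM in CL and 4.82, 7.60 and 9.28 CPM in PI. The log2 difference was 1.55 ± 0.26 (adjusted p = 0.00307), with no overlap.

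The summed levels of microglia and of infiltrating myeloid cell markers were higher in PI, as those of Plin2 and Lpl were, though single markers went both ways. Summed microglia markers (12 of 12 listed) ran from 237 to 269 CPM in PI WT against 205 to 219 in CL WT, and from 265 to 317 CPM in PI KO against 218 to 239 in CL KO. Of the 12, 6 were higher and 2 lower in WT, and 6 higher and 1 lower in KO. Fcrls had the smallest p, with log2 differences of 1.79 ± 0.21 in WT (adjusted p = 0.000259) and 1.82 ± 0.17 in KO (adjusted p = 4.13e-05). Of 13 markers of infiltrating myeloid cells only 3 were listed, 2 with a positive and 1 with a negative log2 difference in each genotype, and 1 was called. Their sum ran from 18.4 to 24.7 CPM in PI WT against 13.6 to 14.9 in CL WT, and from 18.3 to 27.0 CPM in PI KO against 13.4 to 17.0 in CL KO. The called one was Mrc1, higher in PI in both genotypes. Whether cells had infiltrated was not tested. The defining Ccr2, Ly6c2, S100a8, S100a9, Ly6g, Plac8, Ms4a7, Retnlg, Chil3 and Arg1 were not listed in the tables of PI and CL. In the table of PI KO and PI WT, 5 of the 13 were listed, S100a8 and S100a9 among them. All 5 had a positive log2 difference there. Their sums overlapped, with medians of 30.5 CPM in PI KO and 23.8 CPM in PI WT. The trimmed-mean test called 0 of the 5, 1 had an unadjusted p under 0.05 and limma on the deposited values called 1. Reactive astrocyte markers rose most, 11 of 12 in WT with a list median of 2.23 on the log2 scale, and 10 of 11 in KO with a median of 1.82. Their sum ran from 499 to 579 CPM in PI WT against 145 to 173 in CL WT, and from 479 to 669 CPM in PI KO against 145 to 160 in CL KO. The part of these cells in the rise of Plin2 and Lpl was not tested.

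**Figure D2:**
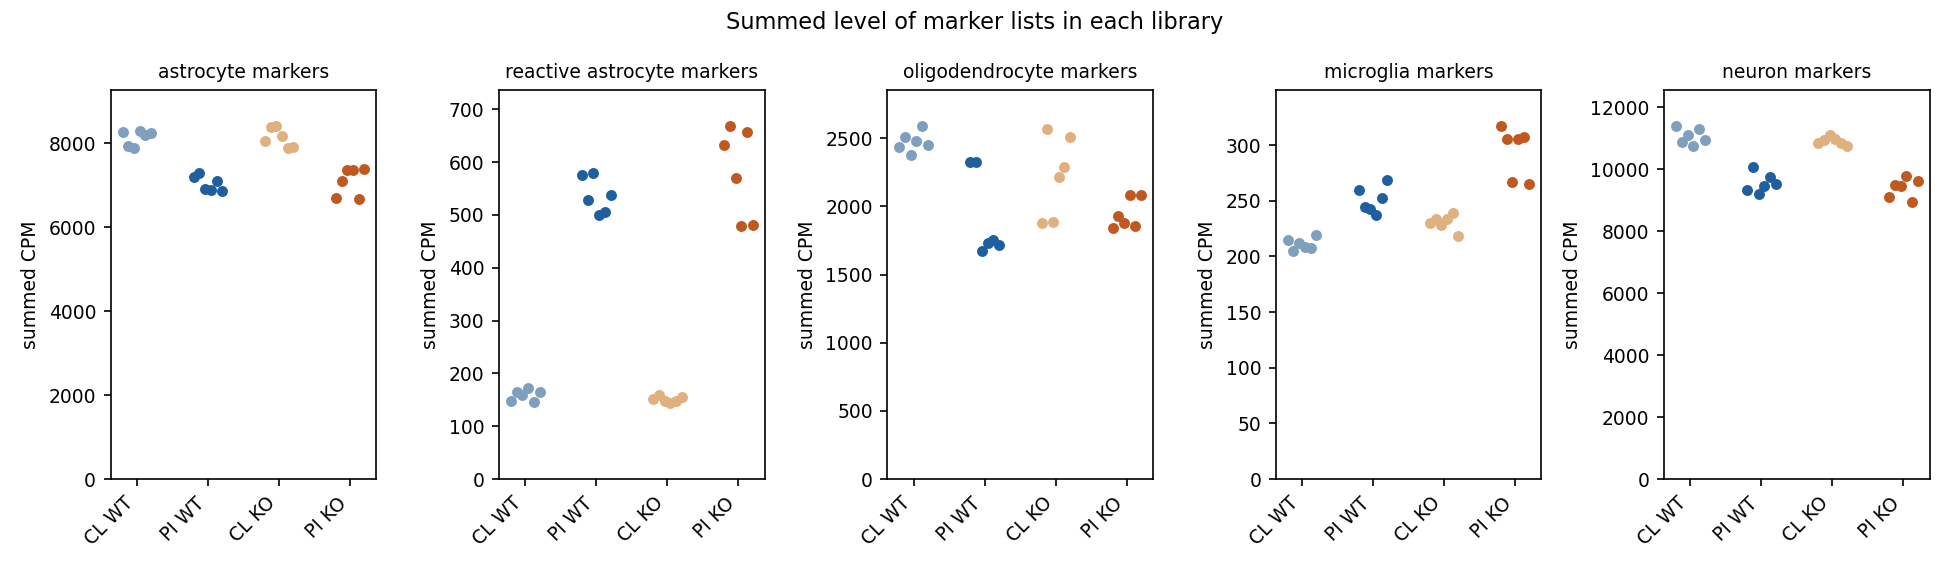
Summed CPM of 5 marker lists (y axis, from 0) in each library of the 4 groups (x axis), from the deposited values. Reactive astrocyte and microglia sums are higher, and astrocyte and neuron sums lower, in the PI than in the CL libraries of each genotype.

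Fabp7, the brain fatty acid binding protein (chromosome 10, 57784881 to 57788450, plus strand), was not called in either genotype. It had 5.14, 6.99 and 7.34 CPM in CL WT and 8.12, 8.78 and 10.6 CPM in PI WT. These values did not overlap, yet the log2 difference of 0.46 ± 0.17 did not pass (adjusted p = 0.121). In KO animals it had 4.42, 5.78 and 6.84 CPM in CL and 5.56, 11.1 and 15.3 CPM in PI. The PI KO values were widely spread, the groups overlapped, and the log2 difference of 0.84 ± 0.35 did not pass (adjusted p = 0.156). Limma on the deposited values, whose spread is understated, called Fabp7 in WT and in KO. This held blocked by animal (adjusted p = 0.000358 and 0.000193) and without the block (adjusted p = 0.00124 and 0.00553). Counting Fabp7, recovered values of PI and CL did not overlap for 5 of the 7 genes in WT, where 26.3% of all genes had none, and for 5 in KO, where Abca1 took the place of Fabp7 and 26.8% of all genes had none.

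Whether the loss of ciRS-7 goes with another level of these genes was asked within each side. In PI, 0 of the 7 genes were called between KO and WT, where 0.0208% of all genes were called. At an unadjusted p under 0.05, met by 5.75% of all genes, there was 1, Apoe, and limma on the deposited values called the same 1. Apoe had 263, 269 and 273 CPM in PI KO and 196, 234 and 246 CPM in PI WT. The recovered values did not overlap, which was so for 8.97% of all genes, and the log2 difference was 0.24 ± 0.08 (adjusted p = 0.854 by the trimmed-mean test with limma's moderation). Plin2 had 4.93, 7.76 and 9.49 CPM in PI KO and 4.40, 5.67 and 8.36 CPM in PI WT, which overlapped, with a log2 difference of 0.31 ± 0.30 (adjusted p = 0.910). The other 5 had log2 differences from -0.09 ± 0.42 (Lpl) to 0.17 ± 0.33 (Fabp7), none past the threshold. Summed microglia markers ran from 272 to 325 CPM in PI KO and from 241 to 274 in PI WT. Of these 12 markers 0 were called, 4 had an unadjusted p under 0.05 and limma on the deposited values called 5. Their part in the Apoe difference was not tested.

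In CL, 0 of the 7 genes were called between KO and WT, where 0.0279% of all genes were called. At an unadjusted p under 0.05, met by 5.73% of all genes, there was 1, Apod, and limma on the deposited values called 2, Apod and Plin2. Plin2 had 1.99, 2.49 and 2.64 CPM in CL KO and 1.36, 1.70 and 1.90 CPM in CL WT. These recovered values did not overlap, as for 8.67% of all genes, and the log2 difference was 0.53 ± 0.26 (adjusted p = 0.878 by the trimmed-mean test with limma's moderation). Apod had 96.2, 106 and 119 CPM in CL KO and 111, 128 and 131 CPM in CL WT, with some overlap and a log2 difference of -0.22 ± 0.09 (adjusted p = 0.825). All 12 oligodendrocyte markers had a negative log2 difference there, with a median of -0.16 and median sums of 2209 CPM in CL KO and 2409 CPM in CL WT. The trimmed-mean test called 0 of them, 1 had an unadjusted p under 0.05 and limma on the deposited values called 1. Their part in the Apod difference was not tested. Lpl was at -0.38 ± 0.26 on the log2 scale and Fabp7 at -0.21 ± 0.21, both with overlapping values. Apoe, Abca1 and Abcg1 lay between -0.10 ± 0.08 (Abca1) and 0.05 ± 0.09 (Abcg1). Summed microglia markers had a median of 228 CPM in CL KO (highest 235) and of 205 CPM in CL WT (highest 215). Of the 12, limma on the deposited values called 3, while the trimmed-mean test called 0 and gave 0 with an unadjusted p under 0.05. All 8 listed markers of fibroblasts and meninges had a positive log2 difference, with a median of 0.39 and median sums of 69.4 CPM in CL KO and 53.7 CPM in CL WT. Of these the trimmed-mean test called 0, 2 had an unadjusted p under 0.05 and limma on the deposited values called 3. The part of either list in the Plin2 difference was not tested.

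**Figure D3:**
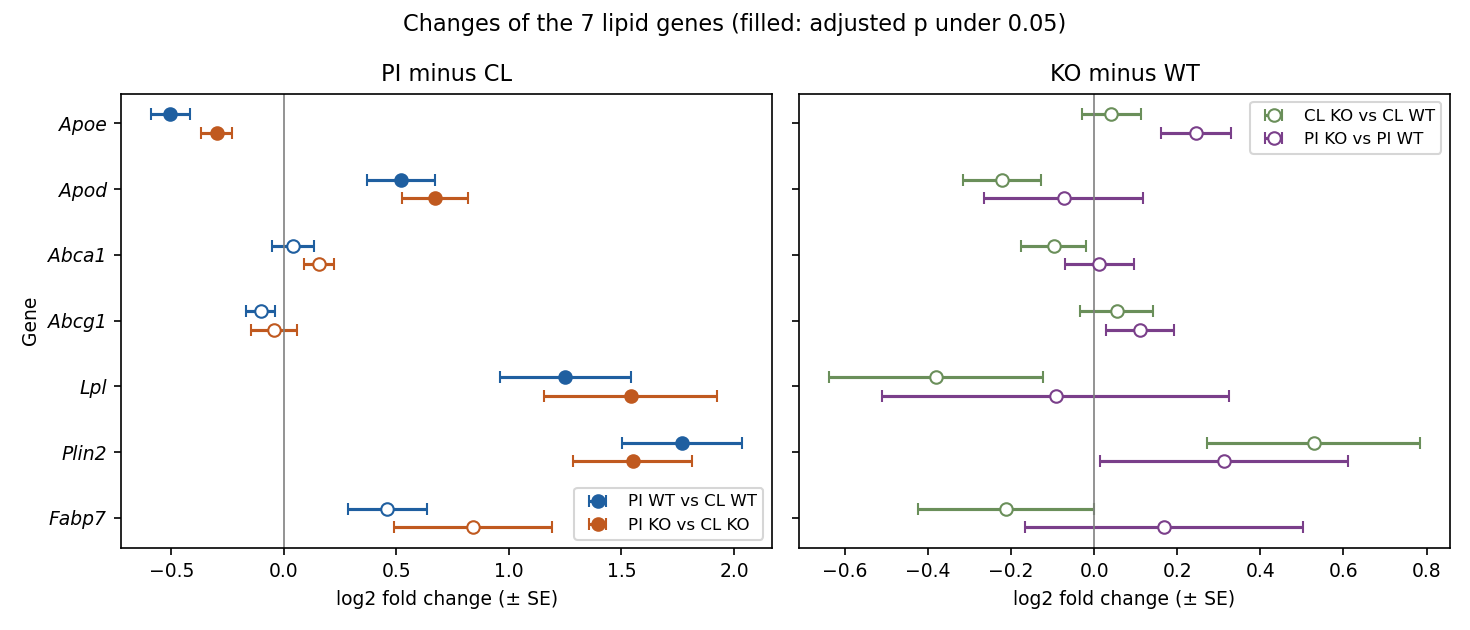
Log2 fold change ± SE (x axis) of the 7 genes (y axis), with PI minus CL in each genotype on the left and KO minus WT on each side on the right, on different x scales. Filled points passed an adjusted p of 0.05: Plin2, Lpl, Apod and Apoe on the left in both genotypes, and none on the right.

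The change from CL to PI was also compared directly between genotypes, as the PI minus CL difference in KO less that in WT. Of the 7 genes 0 were called and 0 had an unadjusted p under 0.05 in the trimmed-mean test. Only 1, Apoe, was called by limma on the deposited values. Over 14211 genes 0.00% were called, 646 (4.55%) had an unadjusted p under 0.05, and limma on the deposited values called 1940. The difference of log2 changes was 0.21 ± 0.12 for Apoe, 0.15 ± 0.24 for Apod, 0.11 ± 0.12 for Abca1, 0.06 ± 0.13 for Abcg1, 0.29 ± 0.54 for Lpl, -0.22 ± 0.39 for Plin2 and 0.38 ± 0.43 for Fabp7, each at an adjusted p of 0.992. The blocked limma fit on the deposited values gave Apoe an adjusted p of 0.0273. In the trimmed-mean test none of the 7 differences was resolved from 0.

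The members did not all vary together from library to library. Across the 12 libraries of the KO table, deposited values of Plin2 correlated with those of Abca1 (Pearson r = 0.85) and of Lpl (r = 0.85) after group means were taken out, and Abca1 with Lpl (r = 0.79). These were the highest r of the KO table, and the same pairs had r = 0.13, 0.44 and 0.31 in the WT table. In PI KO, animals 4 and 6 held the tied low values of Plin2 at 2.40 log2 CPM. Lpl was at its tied low value of 3.49 log2 CPM in animals 1 and 4, and at 3.99 in animal 6. Apoe and Apod, the 2 apolipoproteins, had r = 0.20 in WT and 0.18 in KO. Among other pairs, Apoe and Fabp7 had r = 0.70 in WT and 0.36 in KO. Negative in both tables were Apoe with Abcg1 (r = -0.63 in WT and -0.36 in KO) and Abcg1 with Fabp7 (r = -0.48 and -0.67), among others. These are descriptions over libraries that share a table and its scaling, and the ties shared by each group enter them.

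The 2 genes with the most similar pattern are given for each member, by the smaller of the Pearson r over the 12 libraries of each PI and CL table, among 13360 genes. For Plin2 these were Odc1, the first enzyme of polyamine synthesis (r = 0.98), and Ptprc, the leukocyte antigen CD45 (r = 0.98). Odc1 changed by 0.64 in WT and 0.78 in KO on the log2 scale (adjusted p = 0.00386 and 0.000507), and Ptprc by 1.00 and 1.06 (adjusted p = 0.000604 and 0.000452). For Lpl they were Iars, an isoleucine tRNA synthetase (r = 0.93), and Plek, pleckstrin of blood and myeloid cells (r = 0.93). Plek rose by 1.34 and 1.67 (adjusted p = 1.34e-05 and 5.43e-05), while Iars was at 0.20 and 0.32, neither called. For Apoe they were Gprc5b, an orphan receptor (r = 0.96), and S1pr1, a sphingosine-1-phosphate receptor (r = 0.94), both lower in PI with log2 changes of -0.36 and -0.50, and of -0.28 and -0.22. S1pr1 did not pass in KO (adjusted p = 0.0696). For Apod they were Gpd1, glycerol-3-phosphate dehydrogenase (r = 0.95), and Add3, an adducin (r = 0.91). For Abca1, Abcg1 and Fabp7 the likeness was lower: Mrps10 and Clk3 with Abca1 (r = 0.78 and 0.76), C77080 and Tsc22d3 with Abcg1 (r = 0.75 and 0.71), and Tpt1 and Ybx1 with Fabp7 (r = 0.86 and 0.86). With 12 libraries in 2 groups, r takes in the difference between PI and CL.

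Of 111 other genes of lipid handling in 7 lists, 85 were listed in the WT table of PI and CL, where 5 were higher and 8 lower (5.88% and 9.41% of those listed, beside 5.20% and 5.40% of all genes). In the table of KO animals 86 were listed, 7 higher and 5 lower (8.14% and 5.81%, beside 5.11% and 4.94% of all genes). Their median log2 changes were -0.00070 in WT and -0.02 in KO. Between genotypes 0 were called on either side by the trimmed-mean test. In PI there were 2 at an unadjusted p under 0.05 and 17 called by limma on the deposited values, and in CL 7 and 15. The change from CL to PI could be compared between genotypes for 84 of them, and the trimmed-mean test called 0. An unadjusted p under 0.05 was met by 6, beside 4.55% of all genes, and limma on the deposited values called 13. A gene called below in WT or KO alone is thus not shown by that test to change differently between genotypes.

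Scavenging and uptake receptors held the steepest rise. Msr1, a scavenger receptor of macrophages, rose by 5.07 ± 0.86 in WT (adjusted p = 0.00254), from a mean of 0.538 to 18.1 CPM, and by 4.85 ± 0.29 in KO (adjusted p = 1.46e-06), from 0.742 to 21.4 CPM. Both CL means lie near the limit of a count of 0, so the size of these folds is uncertain. Sort1, a sorting receptor that also binds lipoprotein lipase, fell by 0.40 ± 0.05 and by 0.33 ± 0.08 (adjusted p = 0.000423 and 0.0189). Vldlr was lower in WT, at -0.27 ± 0.05 (adjusted p = 0.00713), and at -0.11 ± 0.06 in KO (adjusted p = 0.312). In this list 1 was higher and 2 lower of 11 in WT, and 1 higher and 1 lower of 12 in KO. The largest uncalled change was that of Cd36, a fatty acid translocase listed only in the KO table, at 0.87 ± 0.44 (adjusted p = 0.247).

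Among apolipoproteins and transporters, 1 rose and 1 fell of 15 in WT, and 2 rose and 1 fell in KO. Abca9 fell by 1.20 ± 0.13 in WT (adjusted p = 0.000115) and by 1.17 ± 0.16 in KO (adjusted p = 0.000679). Its neighbour in the ABC transporter family, Abca8b, rose by 0.32 ± 0.08 and 0.32 ± 0.09 (adjusted p = 0.0196 and 0.0427). Lcat, which esterifies cholesterol on lipoproteins, was at 0.37 ± 0.19 in WT (adjusted p = 0.283) and rose by 0.88 ± 0.22 in KO (adjusted p = 0.0267). Apool had the largest uncalled change, 0.37 ± 0.17 in WT (adjusted p = 0.196). Of the liver X receptors, their partners and targets, 0 rose and 1 fell of 10 in WT. That gene was Scd1, a fatty acid desaturase, at -0.18 ± 0.05 (adjusted p = 0.0412). In KO 0 of 10 were called by the moderated test, 0 had an unadjusted p under 0.05, and limma on the deposited values called 3. Mylip, a ubiquitin ligase, had the largest uncalled change, 0.24 ± 0.11 in WT and 0.22 ± 0.11 in KO (adjusted p = 0.224 and 0.258).

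Of lipases and their partners, 1 rose of 12 in WT, and 1 rose and 1 fell in KO. Lipg, the endothelial lipase in the same family as Lpl, rose by 1.31 ± 0.19 in WT (adjusted p = 0.00110) and 0.68 ± 0.19 in KO (adjusted p = 0.0445). Mgll, monoacylglycerol lipase, was at -0.15 ± 0.06 in WT (adjusted p = 0.180) and fell by 0.26 ± 0.07 in KO (adjusted p = 0.0337). Angptl4, an inhibitor of lipoprotein lipase, was at -0.25 ± 0.24 in WT and 0.69 ± 0.23 in KO, neither called (adjusted p = 0.603 and 0.0782). Of the genes of droplet coat and assembly, 1 fell of 14 in WT, and 1 rose and 1 fell of 13 in KO. Acsl3, which activates fatty acids for droplet formation, fell by 0.37 ± 0.08 in WT and by 0.29 ± 0.09 in KO (adjusted p = 0.00901 and 0.0493). Gpam, the first enzyme of glycerolipid synthesis, was at 0.05 ± 0.07 in WT (adjusted p = 0.735) and rose by 0.28 ± 0.07 in KO (adjusted p = 0.0288). G0s2, an inhibitor of triglyceride lipase, was listed in the WT table only, at -0.29 ± 0.29 (adjusted p = 0.608).

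Among genes of fatty acid binding and oxidation, 1 rose and 2 fell of 19 in WT, and 1 rose in KO. Fabp5, a relative of Fabp7, was at 0.12 ± 0.08 in WT (adjusted p = 0.429) and rose by 0.51 ± 0.09 in KO (adjusted p = 0.00286). Fabp3 and Hadhb, a subunit of the mitochondrial trifunctional enzyme, fell by 0.25 ± 0.07 and by 0.21 ± 0.06 in WT (adjusted p = 0.0276 and 0.0412). Ucp2 rose by 0.59 ± 0.17 in WT (adjusted p = 0.0379), and was at 0.45 ± 0.14 in KO (adjusted p = 0.0538). Acot1 had the largest uncalled change, 0.56 ± 0.19 in WT (adjusted p = 0.0784). In the list of cholesterol hydroxylation, 1 rose and 1 fell in each genotype, of 4 listed in WT and 5 in KO. Ch25h, which makes 25-hydroxycholesterol and is known from activated myeloid cells, rose by 2.63 ± 0.42 in WT, from a mean of 0.647 to 4.00 CPM, and by 1.65 ± 0.42 in KO, from 1.01 to 3.18 CPM (adjusted p = 0.00182 and 0.0276). Its CL WT mean, too, lies near the limit of a count of 0, so the size of the WT fold is uncertain. Cyp46a1, the neuronal cholesterol 24-hydroxylase, fell by 0.31 ± 0.07 and by 0.31 ± 0.08 (adjusted p = 0.0120 and 0.0325). Hsd3b7, an enzyme of bile acid synthesis, was at 1.00 ± 0.34 and 0.99 ± 0.41, neither called (adjusted p = 0.0868 and 0.158).

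**Figure D4:**
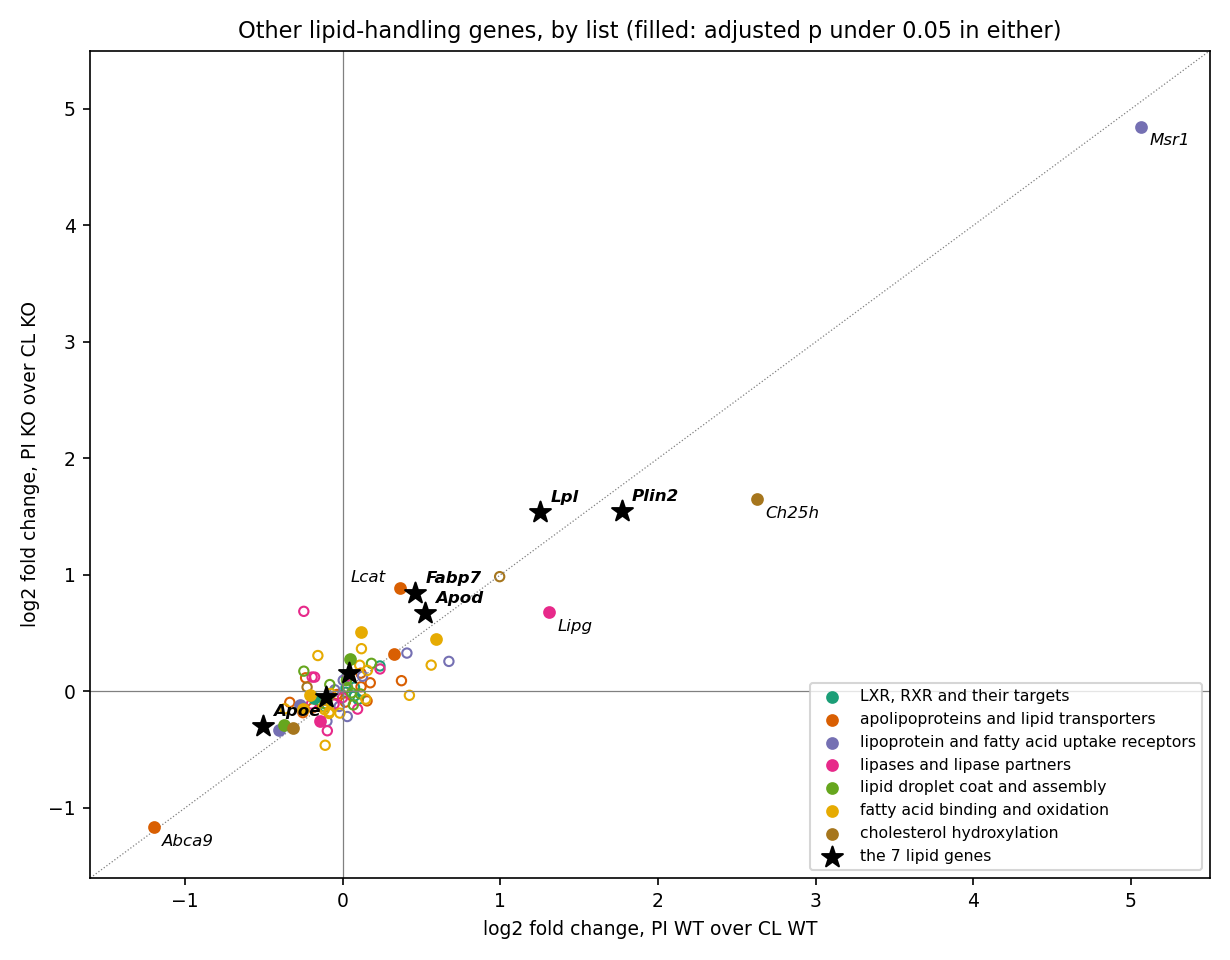
Log2 fold change of PI over CL in WT (x axis) and in KO (y axis) for the genes of the 7 lists that both tables hold (circles, filled where called in either genotype) and for the 7 members (stars), with equal change on the dotted line. Msr1 lies farthest to the upper right, and its CL means are near the limit of a count of 0. Ch25h, Lipg, Plin2 and Lpl are also higher in both genotypes but lie well short of it. Abca9 is at the lower left, and most other lipid genes are near 0.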

How the data were processed

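RNA from mouse cortex was depleted of ribosomal RNA and made into total RNA libraries, per the labels' protocols. The authors deposited log2 CPM, with 0.001 CPM added, in 4 tables, 1 for each pair of groups. The genome build is mm10, per the submitters' processing notes, and the aligner, counting, annotation and scaling are not given in the sources used here. Tables were scaled separately, so tests stay within a table. The interaction compares differences taken within each. No column was left unused (0).

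In 100% of genes the 2 lowest and the 2 highest deposited values of a group are equal, as after drawing values in to the quartiles. The 4 inner values were solved from this. After recovery, 73.3% to 87.4% of tied low values (under 10 reads) were whole reads within 0.03 read, against 8.98% to 12.9% as deposited. The mean of these 4 and the Winsorized variance (6 degrees of freedom, 12 for 4 groups) went through limma 3.58.1 in R 4.3.3, eBayes with a trend, two-sided, with Benjamini-Hochberg adjustment over the table. The test was tried on simulated data (14489 genes, 5 runs) in which both groups had the means of CL WT. Noise was independent and normal, with a spread scaled up from the Winsorized variance of CL WT. The test called 0 genes with none changed. Of genes above 0 log2 CPM changed by 0.5, 1 and 2 on the log2 scale, it called 51.1%, 84.2% and 97.4%. On average 7.4 of 109.6, 12.6 of 181 and 11.6 of 206.4 calls were false. The spread of the PI groups was not simulated, so these shares may differ for PI against CL. limma on the drawn-in values called 1819 to 1935 with none changed. Floors cover counting error only, while the SE includes the spread between libraries.

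The members, gene lists and tests were chosen with earlier results of these data known. Named are all 7 members, up to 4 called genes of each list by adjusted p and the uncalled gene with the largest change, the 2 genes most like each member (mean of at least 1 log2 CPM), and the marker with the smallest p where a list is described. Some list genes are not reported here and are left out of the counts. Positions and exon lengths are from GENCODE M21 (GRCm38). Alternatives were limma on the deposited values with and without the animal as a block, no trend, group centring, a filter at 0 log2 CPM, log2(CPM + 0.5), log2(CPM + 1) and the median as location. The trimmed-mean test takes PI and CL as unpaired groups. A PI and a CL library share each animal name in the labels and were read as pairs, but the pairing enters only the blocked limma fit. Deviations of the 2 libraries correlated at -0.00588 to 0.209 in WT and -0.0123 to 0.190 in KO.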

Additional observations from a re-analysis of the deposited data

How the results depend on the processing

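Over 273 values of single genes under an alternative, 251 kept their direction and their side of the threshold, 7 lost the call, 13 gained one and 2 turned direction. Plin2 kept its calls between PI and CL under every alternative run, with log2 changes of 1.33 to 1.77 in WT and 1.25 to 1.58 in KO. Both reversals came with the median of the inner values as location: Abca1 in WT to -0.000517 and Lpl between PI KO and PI WT to 0.092, both uncalled. With no trend in the prior variance, called genes fell to 1015 in WT and 739 in KO. The members called between PI and CL then fell to 2 in WT (Plin2 and Apoe) and 1 in KO (Plin2). Adjusted p became 0.144 for Apod and 0.0754 for Lpl in WT, and 0.0836 for Apoe, 0.0747 for Apod and 0.0991 for Lpl in KO. Apod in WT was also lost with centring (adjusted p = 0.0554) and with the median (0.0748). Centring left 37.7% of calls higher in WT, beside 49.1%, and 36.7% in KO, beside 50.8%.

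Limma on the deposited values, whose spread is understated, called 6459 and 6666 genes between PI and CL, 2388 in PI KO against PI WT, 2311 in CL KO against CL WT and 1940 for the interaction. Of the members it called 1 (Apoe), 2 (Apod and Plin2) and 1 (Apoe) in the last 3. It also called Abcg1 and Fabp7 between PI and CL in WT, and Abca1 and Fabp7 in KO. With the animal as a block, a replicate block that could only be fitted on the deposited values, it called 6614 and 6759 genes between PI and CL and 2216 for the interaction, where 1 member was called. The block changed no call of a member beside the same fit without it. Leaving out single libraries was not run, because the drawn-in values of a gene depend on all 6. Depth limits Plin2 most, whose CL WT mean of 1.69 CPM is the nearest of the 7 to the floor of 0.286 to 0.571 CPM.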

Other observations

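Markers of the other cell types in the lists moved as follows between PI and CL. Of 14 neuron markers, 0 rose and 5 fell in WT, and 1 rose and 5 fell in KO. Camk2a had the smallest p, at -0.44 ± 0.06 in WT and -0.59 ± 0.06 in KO (adjusted p = 0.000783 and 8.33e-05 in the trimmed-mean test with limma's moderation). Of 10 endothelial markers, 0 were called higher and 1 lower in each genotype. Yet 8 had a positive and 2 a negative log2 difference in each, with medians of 0.35 in WT and 0.14 in KO. The marker called lower in WT is not named here. Slco1a4, a transporter of the blood-brain barrier, was at -0.48 ± 0.17 in WT (adjusted p = 0.0937) and fell by 0.48 ± 0.08 in KO (adjusted p = 0.00234). Of 8 listed markers of fibroblasts and meninges, 1 rose and 1 fell in each genotype. In each, 5 had a positive and 3 a negative log2 difference, with medians of 0.56 in WT and 0.02 in KO. The one that fell, Igf2, did so by 0.76 ± 0.10 in WT and by 0.77 ± 0.17 in KO (adjusted p = 0.000367 and 0.0114). Of 4 listed markers of the striatum, 1 rose and 0 fell in WT, which was Ppp1r1b, a phosphatase inhibitor of dopamine-responsive neurons, at 0.63 ± 0.15 (adjusted p = 0.0159). In KO it was at 0.50 ± 0.19 (adjusted p = 0.126), and 0 of the 4 were called there by the trimmed-mean test, 1 had an unadjusted p under 0.05 and limma on the deposited values called 1. Of 7 listed markers of oligodendrocyte precursors, 0 rose and 1 fell in WT, which was Cspg4 at -0.53 ± 0.12 (adjusted p = 0.0164). In the astrocyte list Gja1, a gap junction gene, had the smallest p, with falls of 0.35 ± 0.08 in WT and of 0.43 ± 0.07 in KO (adjusted p = 0.0126 and 0.00185). In the reactive astrocyte list it was Serpina3n, at 2.54 ± 0.21 and 2.72 ± 0.11 (adjusted p = 1.86e-05 and 3.15e-08).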
